A study of Mus musculus with 6 samples.

Results

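Fatty acids reach the hepatocyte as free acids released by adipose tissue or as triglyceride carried by lipoproteins. The 10 genes described here were chosen by symbol for the proteins that take these fatty acids up and bind them inside the cell: the cytosolic fatty acid binding proteins (FABPs) *Fabp1*, *Fabp2*, *Fabp4*, *Fabp5* and *Fabp7*, the membrane proteins *Cd36*, *Slc27a2* and *Slc27a4*, and, for lipoprotein-derived fatty acids, *Vldlr* and *Lpl*. They are 10 of 45777 genes in the expression table, and all 10 passed the filter on low counts (no more than 1 zero count among the 6 mice), which left 18636 genes.

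Liver RNA was sequenced from 3 WT mice (*Pak4* flox/flox) and 3 liver-specific knockout (LKO) mice, which are *Pak4* flox/flox and carry *Alb*-Cre. The 6 animals were C57BL/6 males 8 weeks old that carried the floxed *Pak4* allele and were killed after 24 h without food. Cre recombinase is made from the albumin promoter, so that *Pak4*, a serine/threonine kinase, is removed in hepatocytes while the other cells of the liver keep it. No fed mice and no *Alb*-Cre mice without the floxed allele are part of the comparison, which asked how the loss of PAK4 changed gene expression in the fasted liver.

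Fasting raises the flow of free fatty acids to the liver, where they are oxidised, made into ketone bodies or stored again as triglyceride. CD36 and the fatty acid transport proteins (FATPs, the Slc27a family) help them cross the plasma membrane, FABPs carry them through the cytosol, and lipoprotein lipase (LPL) releases them from triglyceride-rich lipoproteins, which the VLDL receptor also binds. Several of these genes are textbook targets of PPARα, a nuclear receptor that fatty acids activate.

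Libraries held 45934632 to 55205564 reads counted on genes in WT livers against 53936281 to 59576437 in LKO livers. In LKO libraries 30.6 to 36.3% of the reads fell on the 10 most abundant genes, against 16.2 to 17.3% in WT. TMM, the scaling of edgeR that sets most genes to no change, gave factors of 1.28 to 1.43 in WT and 0.639 to 0.816 in LKO, and with total counts in its place the median log2 fold change of all genes tested moved from −0.04 to −0.90. Directions after TMM are therefore relative to most other genes. *Pak4* was at 210 to 271 reads in WT and 52 to 149 in LKO libraries, and after TMM its log2 fold change was −0.71 (SE 0.31, adjusted p = 0.101, edgeR). On the TMM scale *Pak4* was at 3.21 to 4.097 CPM (reads relative to the TMM-corrected library total) in WT and at 1.93, 1.49 and 3.22 CPM in LKO mice 1, 2 and 3, so that the library labelled LKO mouse 3 lay within the WT range. Its TPM, 0.845, was below the WT range of 2.31 to 2.59. TPM were lower in LKO livers for most genes, however. The median log2 fold change of all genes tested was −0.79 on the log2(TPM + 1) scale and −1.34 on the log2(TPM + 0.1) scale. Without LKO mouse 3, 5 of the 10 genes below were called higher and 3 lower. Of 10 hepatocyte markers, 3 were called higher (*Alb*, *Apoa1* and *Cps1*) and 2 lower (*Ttr* and *Trf*). They summed to 52383 to 57002 CPM in WT and 113934 to 135501 in LKO livers. Most of this rise was *Alb*, with means of 21079 CPM in WT and 69388 CPM in LKO livers.

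After TMM scaling, 5 of the 10 genes were called higher in LKO livers (*Fabp2*, *Fabp4*, *Fabp7*, *Cd36* and *Slc27a2*), 3 were called lower (*Fabp5*, *Slc27a4* and *Lpl*), and *Fabp1* and *Vldlr* were not called, at an adjusted p under 0.05 in edgeR's quasi-likelihood test. Of all genes tested, 19.6% were called higher and 20.5% lower. With total counts, 3 were called higher (*Fabp2*, *Fabp4* and *Fabp7*) and 4 lower (*Fabp1*, *Fabp5*, *Slc27a4* and *Lpl*), where 6.26% of all genes were called higher and 51.4% lower. The calls for *Fabp2*, *Fabp7*, *Fabp5*, *Slc27a4* and *Lpl* kept their direction in all 20 alternatives computed, whereas *Fabp4* lost its call in 2, and *Cd36* and *Slc27a2* lost it in 4 and 1 and turned direction in 2 each. After TMM, 9 of the 10 genes had no overlap between genotypes, which was also true of 54.0% of all genes tested. The median log2 fold change of the 10 genes was 0.92. The 10 genes were chosen with earlier results of these data known. Their counts beside those of all genes are therefore no test of the group.

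**Figure D1:**
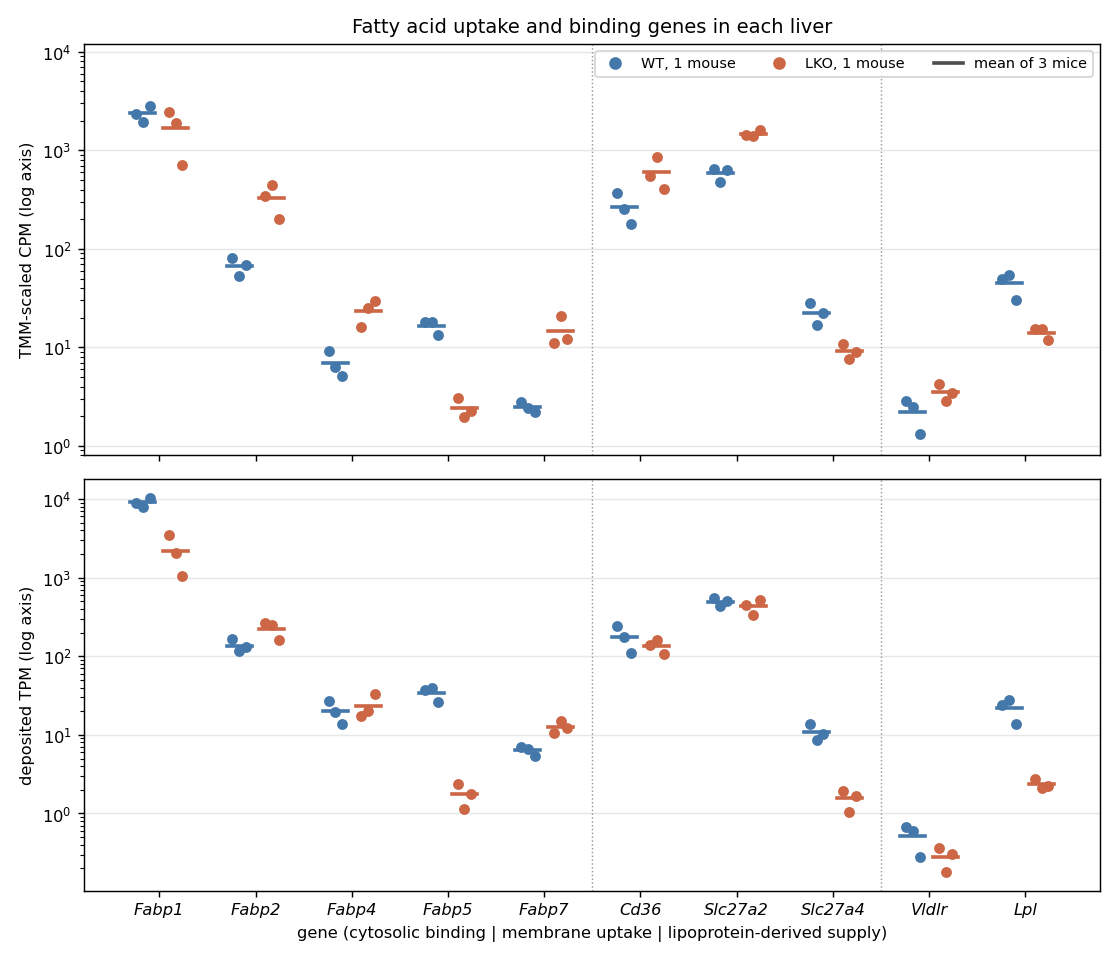
Level of each of the 10 genes in each mouse, as TMM-scaled CPM (upper) and as the TPM deposited by the authors (lower), both on log axes; points are mice and lines are means of 3. *Fabp5*, *Slc27a4* and *Lpl* lie lower and *Fabp2* and *Fabp7* higher in LKO livers in both panels apart from 1 overlap (*Fabp2* TPM), whereas *Cd36*, *Slc27a2* and *Vldlr* lie higher as CPM and have lower means as TPM, and *Fabp1* overlaps as CPM and not as TPM.

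*Fabp1*, liver FABP, is the main fatty acid carrier of hepatocytes and also brings ligands to PPARα. It lies at chr6:71199879-71205034 (+ strand, GRCm38.p6, the RefSeq assembly of mm10). Its RefSeq promoter window is shown because it holds the closest match to a DR1 among the 7 genes with such a window, the repeat bound by PPARα with its partner RXR. The motif searched on both strands was AGGTCANAGGTCA, with at most 2 mismatches over its 12 fixed bases, and such a match was found in 3.86% of all 32851 promoter windows of 300 bases (250 before and 50 after the start). The 250 bases before the start (chr6:71199629-71199878, + strand) read as follows, with the match in capitals.
Fabp1: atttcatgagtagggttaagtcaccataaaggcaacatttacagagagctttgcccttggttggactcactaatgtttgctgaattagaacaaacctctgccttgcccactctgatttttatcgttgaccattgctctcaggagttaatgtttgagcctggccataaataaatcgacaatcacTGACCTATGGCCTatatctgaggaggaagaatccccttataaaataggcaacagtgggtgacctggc
The match began 67 bases before the start, lay on the opposite strand and had 11 of the 12 bases. With at most 1 mismatch allowed, 0.554% of windows held a match, and *Fabp1* was the single one among the 7 genes. A match describes the letters of the window, not binding.

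As read counts, *Fabp1* was at 173582, 127235 and 188445 in the WT libraries and at 107226, 66341 and 32454 in the LKO libraries. Every LKO library held fewer *Fabp1* reads than every WT library. After TMM scaling the values were 2328, 1945 and 2849 CPM for the WT livers and 2436, 1902 and 702 CPM for the LKO livers. LKO mice 1 and 2 then fell within or beside the WT range and LKO mouse 3 lay far below it. The log2 fold change was −0.50 (SE 0.42, adjusted p = 0.38, edgeR). It was −0.13 without LKO mouse 3 and −0.87 without LKO mouse 1, and it was not called when any single mouse was left out.

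Whether *Fabp1* was called depended on the scaling, although its direction did not. Its log2 fold change was −1.35 with total counts (adjusted p = 0.019, edgeR), −1.25 with a correction for gene length (adjusted p = 0.036, edgeR) and −2.21 on the log2(TPM + 1) scale (adjusted p = 0.0028, limma). Relative to the median of all genes these differences were −0.45, −1.23 and −1.42, against −0.46 after TMM. With total counts, *Fabp1* thus lay as far from most genes as after TMM. In TPM, a unit per transcript length, *Fabp1* was at 8896, 7978 and 10284 in WT livers against 3482, 2033 and 1044 in LKO livers. Among 13858 protein-coding genes it ranked between 6 and 7 by TPM in WT livers and between 21 and 62 in LKO livers. Mean TPM were 4.14-fold and mean read counts 2.37-fold lower in LKO livers. The coefficient of variation of the TPM was 12.8% in WT livers against 56.1% in LKO livers.

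*Fabp2*, intestinal FABP, is best known from enterocytes, where it binds absorbed fatty acids. It lies at chr3:122895072-122899506 (+ strand). Its values were 81.6, 52.8 and 68.0 CPM for the WT livers and 345, 443 and 201 CPM for the LKO livers. All 3 LKO mice exceeded all 3 WT mice. *Fabp2* rose 4.89-fold (log2 fold change 2.29, SE 0.31, adjusted p = 0.00087, edgeR). The rise was called with total counts (1.40, adjusted p = 0.0020, edgeR) and on the log2(TPM + 1) scale (0.69, adjusted p = 0.032, limma), although TPM values of 165, 115 and 130 in WT livers against 262, 251 and 159 in LKO livers overlapped through LKO mouse 3.

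Markers of enterocytes were nearly absent from these livers: none of the 7 passed the filter, 4 of the 7 had 0 reads in all 6 mice, and their summed level was 0 to 0.181 CPM in WT livers against 0 to 0.173 CPM in LKO livers. An antisense transcript annotated by GENCODE overlaps *Fabp2* on the opposite strand. It had 0 to 9 reads, against 3454 to 15443 for *Fabp2*.

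*Fabp4* and *Fabp5* lie near each other on chromosome 3 (chr3:10204342-10208616, − strand, and chr3:10012585-10016610, + strand), 187732 bases apart, and they moved in opposite directions after TMM. *Fabp4*, adipocyte FABP, also marks macrophages and capillary endothelium. It was at 9.27, 6.27 and 5.10 CPM in WT livers against 16.2, 24.9 and 29.4 CPM in LKO livers. The lowest LKO mouse lay above the highest WT mouse. The log2 fold change after TMM was 1.77 (SE 0.29, adjusted p = 0.0020, edgeR). With total counts it was 0.89 (adjusted p = 0.028, edgeR), whereas on the log2(TPM + 1) scale it was 0.21 and not called (adjusted p = 0.54, limma). The TPM of *Fabp4*, 26.7, 19.4 and 13.8 in WT livers against 17.4, 20.01 and 32.9 in LKO livers, overlapped.

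In whole liver, fewer cells of a type and less RNA per cell cannot be told apart, and the same holds for more of either. Of 8 endothelial markers, 6 were called higher and 0 lower after TMM, and their sum was 256 to 302 CPM for the WT livers and 447 to 470 CPM for the LKO livers. Of 10 macrophage and Kupffer cell markers, 4 were called higher and 1 lower, with sums of 340 to 503 CPM for the WT livers and 528 to 1022 CPM for the LKO livers. Both sums moved the same way as *Fabp4*, and the part of these cells in its rise was not tested. The macrophage genes called higher were *Clec4f*, *Vsig4*, *Marco* and *Timd4*. *Cd68* was called lower (log2 fold change −1.29, adjusted p = 0.0021, edgeR), and *Adgre1* and *Csf1r* were not called (−0.12 and −0.18). As mean TPM, only *Clec4g* and *Lyve1* of the endothelial and *Vsig4*, *Marco* and *Timd4* of the macrophage list were higher in LKO livers. The sum of the adipocyte markers went the other way, at 27.0 to 39.3 CPM in WT livers against 10.6 to 18.02 CPM in LKO livers. All 3 of 7 that passed the filter were called lower. Most of the sum was *Cidec*, with means of 24.2 CPM in WT and 12.4 CPM in LKO livers. *Plin1* and *Lep* had 0 reads in all mice and *Adipoq* at most 4 in any, so the sum cannot stand for adipocytes. In WT and LKO livers in that order, sums of stellate cell and fibroblast markers were 279 to 328 and 569 to 824 CPM. Those of cholangiocyte markers were 32.9 to 50.2 and 13.7 to 30.2 CPM, and those of erythroid markers 192 to 324 and 879 to 1634 CPM. Of these lists, 2, 0 and 2 markers were called higher after TMM and 1 in each lower (*Col3a1*, *Spp1* and *Alas2*). *Dcn* carried the first rise, with means of 116 CPM in WT and 505 CPM in LKO livers. *Spp1* held most of the cholangiocyte sum, with means of 39.6 and 18.7 CPM.

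*Fabp5*, epidermal FABP, is found in skin, macrophages and many other cell types. Its values were 18.1, 18.1 and 13.4 CPM in WT livers against 3.07, 1.98 and 2.25 CPM in LKO livers. The genotypes lay far apart. *Fabp5* fell 6.77-fold (log2 fold change −2.76, SE 0.23, adjusted p = 0.00024, edgeR), the largest fall among the 10 genes. The fall ranged from −4.25 to −2.64 over all alternatives and was called in each. A processed pseudogene shares 80 of the 3661 distinct 100-base stretches of *Fabp5* transcripts (100 bases being the read length), and it had 40 to 178 reads in WT and 3 to 5 in LKO libraries. *Fabp5* itself had 883 to 1352 and 69 to 135.

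*Fabp7*, brain FABP, is known from glia and neural progenitors. It lies at chr10:57784923-57788450 (+ strand). Its values were 2.78, 2.41 and 2.21 CPM in WT livers against 10.996, 20.7 and 12.1 CPM in LKO livers. WT mice differed little (CV 11.7%) and every LKO mouse lay above them. *Fabp7* rose 5.90-fold (log2 fold change 2.56, SE 0.27, adjusted p = 0.00041, edgeR), the largest rise among the 10. It was called in all alternatives, with values from 0.87 to 2.73. Its level stayed low, at 6.35 ± 0.923 TPM in WT livers against 12.5 ± 2.18 TPM in LKO livers (± SD, n = 3 each).

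Shares of the FABP messages within a library do not depend on how libraries are scaled. *Fabp1* made up 97.4, 97.8 and 98.3% of the summed TPM of the 5 FABP genes in the WT livers, against 92.3, 87.6 and 83.6% in the LKO livers. The shares did not overlap and differed by −10.0 percentage points (two-sided exact permutation test over mice, p = 0.1, adjusted p = 0.1 over the 5 shares). This p is the smallest that 3 against 3 mice can give. Computed from read counts in place of TPM, the difference was −16.1 points. The share of *Fabp2* was 1.49 ± 0.292% in WT livers against 10.1 ± 2.94% in LKO livers (± SD, n = 3 each). *Fabp4* went from 0.221 ± 0.0812% to 1.32 ± 1.16%, and *Fabp7* from 0.0700 ± 0.0166% to 0.628 ± 0.343%. *Fabp5* went the other way, from 0.381 ± 0.122% to 0.0845 ± 0.0510%. The LKO mean of *Fabp4* rested on LKO mouse 3, at 2.63% against 0.461 and 0.863% in the other LKO mice, and without it was 0.662%. That of *Fabp5* was 0.0554% without LKO mouse 3. All of these shares had no overlap between genotypes and the same p of 0.1 in the exact permutation test. The 5 shares are not separate results, because they sum to the whole, most of which was *Fabp1*. A lower *Fabp1* TPM by itself raises the other shares. As TPM, the LKO means of *Fabp2*, *Fabp4* and *Fabp7* were 1.64, 1.17 and 1.96 times the WT means. The genotypes overlapped for *Fabp2* and *Fabp4*. Mean TPM of *Fabp5* was 19.5-fold lower in LKO livers.

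The summed TPM of the 5 genes was 9250 ± 1155 in WT livers against 2448 ± 1267 in LKO livers (± SD, n = 3 each), so that most of the difference in the sum was *Fabp1*. Without *Fabp1* the sum of the other 4 was 197 ± 33.9 and 261 ± 48.7 TPM, and the genotypes overlapped. *Fabp2* stayed the second FABP message in both genotypes, and the order behind it differed. *Fabp5* exceeded *Fabp4* in every WT liver, with a TPM ratio of *Fabp4* over *Fabp5* of 0.488 to 0.716, and fell behind both *Fabp4* and *Fabp7* in every LKO liver, where that ratio was 7.39 to 18.4.

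**Figure D2:**
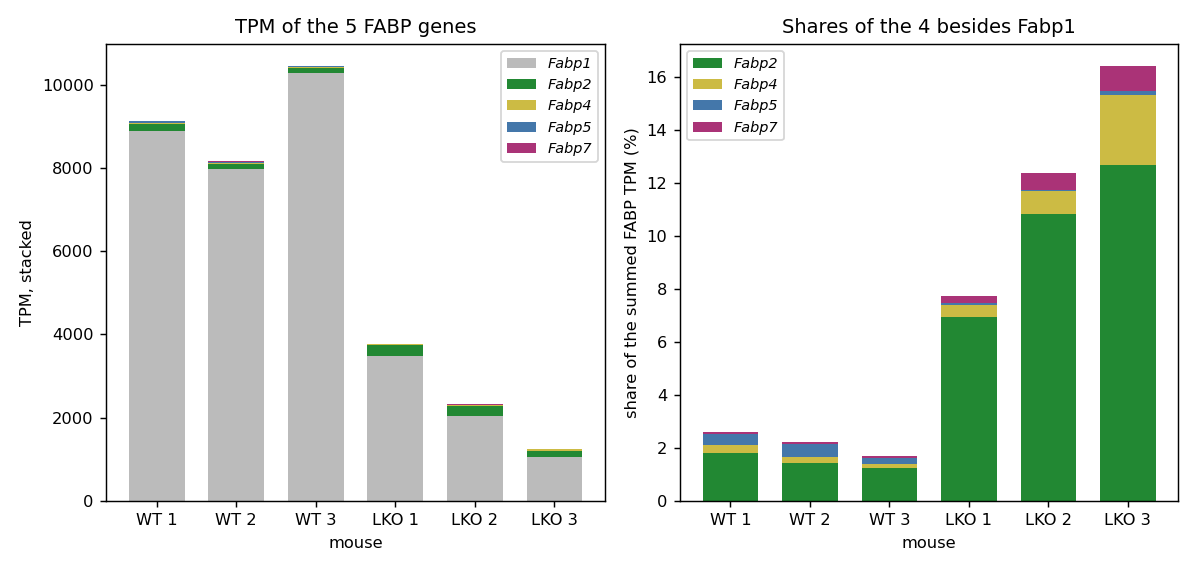
Left, TPM of the 5 FABP genes stacked for each mouse, from 8158 to 10460 in WT and 1249 to 3774 in LKO livers. Right, share of the summed FABP TPM held by the 4 genes other than *Fabp1* in each mouse, in which *Fabp2* grows from 1.24 to 1.81% in WT to 6.94 to 12.7% in LKO livers and the band of *Fabp5* narrows.

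*Cd36*, a scavenger receptor that takes up long-chain fatty acids, lies at chr5:17781690-17888959 (− strand) and has several starts. The RefSeq window at an inner start holds a DR1 match with 10 of 12 bases, the only other one among the 8 windows of the 7 genes with a window (*Fabp1*, *Fabp2*, *Fabp7*, *Cd36*, *Slc27a2*, *Slc27a4* and *Vldlr*). It is shown beside that of *Fabp1*, with the match in capitals (chr5:17835897-17836146, − strand, GRCm38.p6, 250 bases before the start).
Cd36: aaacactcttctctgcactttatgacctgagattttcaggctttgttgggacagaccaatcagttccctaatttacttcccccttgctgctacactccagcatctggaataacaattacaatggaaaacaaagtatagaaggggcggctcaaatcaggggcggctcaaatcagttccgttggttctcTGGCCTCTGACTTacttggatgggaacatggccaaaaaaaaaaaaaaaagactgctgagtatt
The match began 63 bases before the start and, like that of *Fabp1*, lay on the opposite strand. Windows for *Fabp4*, *Fabp5* and *Lpl* were not analysed here.

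*Cd36* was at 373, 252 and 177 CPM for the WT livers and 549, 852 and 404 CPM for the LKO livers. The genotypes did not overlap, with LKO mouse 3 just above WT mouse 1. After TMM the log2 fold change was 1.17 (SE 0.34, adjusted p = 0.026, edgeR), with total counts it was 0.26 and not called (adjusted p = 0.50, edgeR), and on the log2(TPM + 1) scale it turned to −0.33 (adjusted p = 0.36, limma). The call after TMM was also lost without WT mouse 2 (adjusted p = 0.088), without WT mouse 3 (0.090) and without LKO mouse 2 (0.091, edgeR). Measured against the median of all genes, the log2 difference of *Cd36* was 1.21 after TMM, 1.16 with total counts and 0.45 on the log2(TPM + 1) scale. As TPM the values were 246, 177 and 108 in WT livers against 137, 162 and 105 in LKO livers, which overlapped. The sums of the endothelial and macrophage markers above, whose cells also carry CD36, moved with the TMM value of *Cd36*. As TPM most of these markers had lower means in LKO livers, as *Cd36* did. The part of these cells in the *Cd36* values was not tested.

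*Slc27a2* encodes FATP2, a transporter and very long-chain acyl-CoA synthetase that is abundant in liver and kidney. It lies at chr2:126553024-126588243 (+ strand). Its values were 651, 474 and 625 CPM for the WT livers and 1420, 1410 and 1590 CPM for the LKO livers. LKO mice were close to each other (CV 6.86%) and well above WT. After TMM the log2 fold change was 1.34 (SE 0.20, adjusted p = 0.0015, edgeR), with total counts it was 0.48 (adjusted p = 0.063, edgeR), and on the log2(TPM + 1) scale it turned to −0.20 (adjusted p = 0.40, limma). Relative to the median of all genes these differences were 1.38, 1.38 and 0.59. In TPM it was the second most abundant of the 10 genes in both genotypes, at 496 ± 60.4 in WT livers against 438 ± 96.2 in LKO livers (± SD, n = 3 each). A long noncoding RNA on the opposite strand shares 322 of the 3773 distinct 100-base stretches of *Slc27a2* transcripts, and it had 5 to 44 reads against 31029 to 73524 for *Slc27a2*.

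*Slc27a4* encodes FATP4, a related acyl-CoA synthetase of the gut and many other tissues. It lies on the same chromosome (chr2:29802634-29817522, + strand). Its values were 28.1, 16.8 and 22.2 CPM in WT livers against 10.8, 7.68 and 8.91 CPM in LKO livers. All LKO mice lay below all WT mice. *Slc27a4* fell 2.45-fold (log2 fold change −1.29, SE 0.22, adjusted p = 0.0027, edgeR), and it was called lower in all alternatives, with values from −2.74 to −1.09. The ratio of *Slc27a2* to *Slc27a4* in TPM was 40.8, 49.7 and 49.6 in WT and 231, 324 and 315 in LKO livers. This ratio within each library did not overlap between genotypes. The ratio of *Cd36* to *Slc27a2* was 0.216 to 0.444 in WT and 0.200 to 0.484 in LKO livers and overlapped throughout.

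*Lpl*, lipoprotein lipase, frees fatty acids from circulating triglyceride and is made mainly outside the adult liver, in adipose tissue, muscle and macrophages. It lies at chr8:68880555-68906932 (+ strand). Its values were 49.8, 54.1 and 30.4 CPM in WT livers against 15.2, 15.4 and 11.8 CPM in LKO livers. Every WT mouse was above every LKO mouse. *Lpl* fell 3.17-fold (log2 fold change −1.66, SE 0.23, adjusted p = 0.0011, edgeR), and the fall ranged from −3.12 to −1.48 over the alternatives and was called in each. It went with the adipocyte marker sum, most of which was *Cidec*, while *Plin1* and *Lep* had 0 reads. It went against the macrophage sum, although *Cd68* of that list was called lower. The part of any cell type in the fall was not tested.

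*Vldlr*, the VLDL receptor, binds triglyceride-rich lipoproteins and is normally scarce in liver. It lies at chr19:27216480-27254231 (+ strand). It was at 2.86, 2.46 and 1.32 CPM in WT livers against 4.23, 2.87 and 3.42 CPM in LKO livers. The lowest LKO value (2.867 CPM) lay just above the highest WT value (2.857 CPM). The log2 fold change was 0.66 after TMM (SE 0.32, adjusted p = 0.14, edgeR), −0.19 with total counts (adjusted p = 0.69, edgeR) and −0.24 on the log2(TPM + 1) scale (adjusted p = 0.096, limma), so neither a call nor a direction was stable. After TMM it was 0.39 without WT mouse 3. At 87 to 213 reads per library it had the lowest TPM of the 10 genes, 0.521 ± 0.210 in WT livers against 0.283 ± 0.0934 in LKO livers (± SD, n = 3 each). The ratio of *Lpl* to *Vldlr* in TPM was 35.6 to 49.3 in WT and 7.20 to 11.6 in LKO livers, without overlap.

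**Figure D3:**
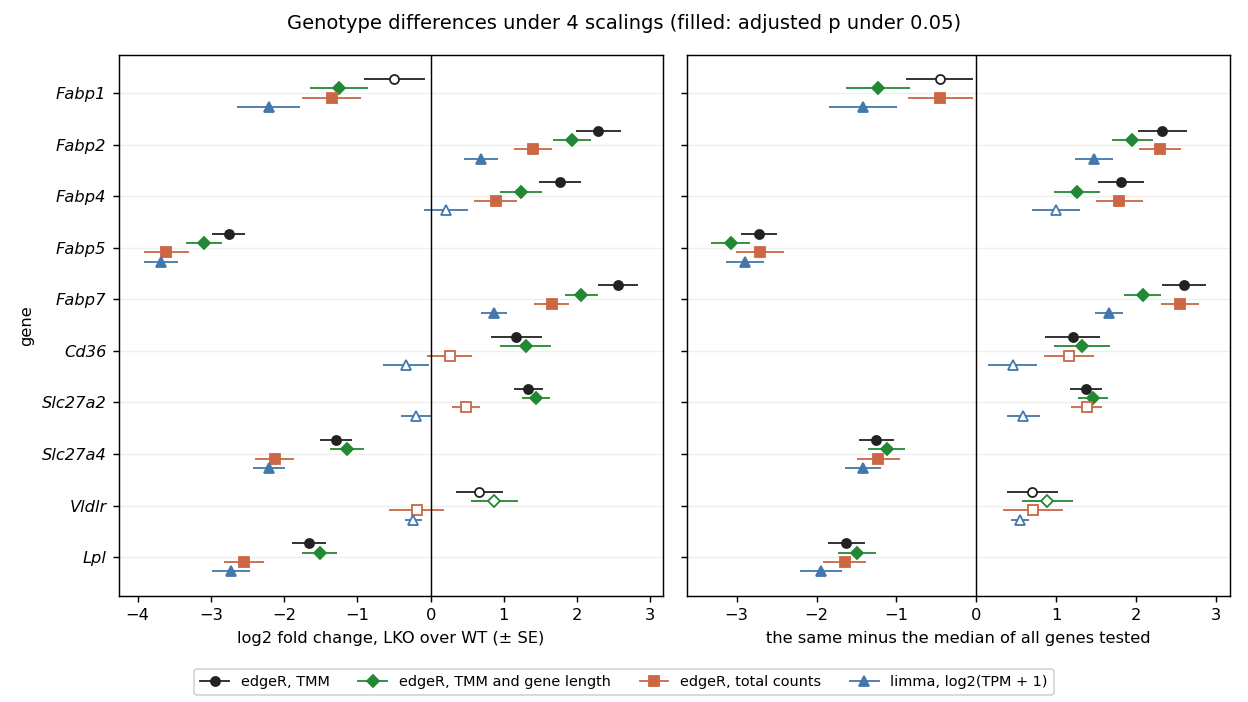
Left, log2 fold change of LKO over WT (± SE) for each gene under edgeR with TMM, with TMM and a gene length correction, with total counts, and under limma on log2(TPM + 1); filled symbols passed an adjusted p of 0.05. Right, the same values minus the median of all genes tested; *Cd36*, *Slc27a2* and *Vldlr* cross 0 on the left (for example 1.17 and −0.33 for *Cd36*) and lie above 0 under all 4 scalings on the right.

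By TPM, the WT order of the 10 genes was *Fabp1*, *Slc27a2*, *Cd36*, *Fabp2*, *Fabp5*, *Lpl*, *Fabp4*, *Slc27a4*, *Fabp7* and *Vldlr*. *Cd36* and *Fabp2* overlapped, as did *Fabp5* with *Lpl*, *Fabp5* with *Fabp4* and *Lpl* with *Fabp4*. In LKO livers the order was *Fabp1*, *Slc27a2*, *Fabp2*, *Cd36*, *Fabp4*, *Fabp7*, *Lpl*, *Fabp5*, *Slc27a4* and *Vldlr*, where *Fabp2* and *Cd36* again overlapped, as did *Lpl* with *Fabp5* and *Fabp5* with *Slc27a4*. *Fabp5*, *Lpl* and *Slc27a4* had means of 34.3, 22.0 and 10.8 TPM in WT and 1.75, 2.35 and 1.55 TPM in LKO livers.

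**Figure D4:**
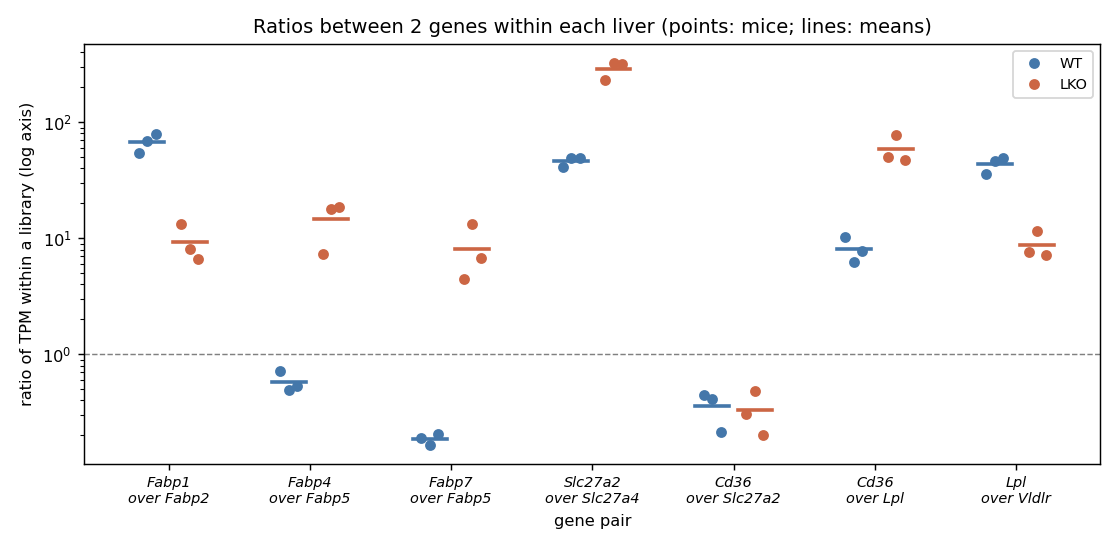
Ratio of the TPM of 2 genes within each library, on a log axis, with points for mice and lines for means of 3; no scaling of libraries enters. For 6 of the 7 pairs the genotypes do not overlap, and for *Cd36* over *Slc27a2* they do (0.216 to 0.444 in WT and 0.200 to 0.484 in LKO livers). The pairs were chosen after values were seen, and several set a gene called higher over one called lower. The count of pairs is therefore no test, and the share of such pairs among all genes was not computed. Of single genes, 54.0% did not overlap after TMM.

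A list of 44 other genes of fatty acid binding, uptake and lipoprotein-derived supply was also chosen with earlier results of these data known. Its genes were compared in the same test. Of these, 34 passed the filter, 7 were called higher and 10 lower after TMM, against the 19.6% and 20.5% of all genes. With total counts, 1 was called higher and 25 lower. The median log2 fold change of the 34 was −0.27, against −0.04 for all genes tested. Among the 10 other genes of the FABP family, 9 did not pass the filter and 6 of these had 0 reads in all 6 mice, *Fabp3* and *Fabp6* among them. The 4 other cytosolic binders of acyl-CoA and lipid were not called after TMM. As TPM, each was lower in every LKO liver than in every WT liver.

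Of 11 other membrane uptake genes tested, 3 were called higher and 3 lower after TMM. *Slc27a1*, which encodes FATP1, the transporter of muscle and fat, was at 2.26 ± 0.0793 CPM in WT livers against 8.09 ± 2.52 CPM in LKO livers (± SD, n = 3 each) and was called higher (log2 fold change 1.84, SE 0.25, adjusted p = 0.00095, edgeR). It was called with total counts too, and on the log2(TPM + 1) scale it had 0.16 and no call. *Cav2*, a caveolar coat protein, was called higher after TMM (1.00, adjusted p = 0.0020, edgeR) and had −0.46 on the log2(TPM + 1) scale (adjusted p = 0.058, limma). Its partner in the caveolar coat, *Cav1*, named after its values were seen, was called lower after TMM, at 5.50, 8.65 and 4.49 CPM in the WT livers and 2.54, 2.87 and 4.41 CPM in the LKO livers (−0.92, SE 0.31, adjusted p = 0.046, edgeR). *Slc27a5*, the bile acid ligase FATP5 of liver, was not called after TMM (0.12, adjusted p = 0.61, edgeR). Its mean TPM was 359 in WT and 135 in LKO livers, without overlap.

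Among 11 lipases and genes that anchor, fold or control them, 3 were called higher and 4 lower after TMM. *Lipg*, endothelial lipase, was at 19.9, 10.2 and 22.9 CPM in WT livers against 3.52, 1.66 and 1.15 CPM in LKO livers, with a log2 fold change of −3.06 (SE 0.46, adjusted p = 0.0014, edgeR). *Lmf1* and *Sel1l*, which LPL needs to fold in the endoplasmic reticulum, were called lower (−1.85 and −1.55, adjusted p = 0.00031 and 0.00083, edgeR), as *Lpl* itself was. *Angptl8*, whose protein takes part in inhibiting LPL, was called lower too (−1.67, adjusted p = 0.0067, edgeR). *Gpihbp1*, the capillary anchor of LPL, *Angptl4*, a fasting-induced LPL inhibitor, and *Apoa5*, an activator of LPL, had 0.99, 0.98 and 0.98 after TMM (adjusted p = 0.0020, 0.028 and 0.0041, edgeR) and −0.50, −0.53 and −0.56 on the log2(TPM + 1) scale (adjusted p = 0.052, 0.17 and 0.029, limma), where *Apoa5* was thus called lower. At a pseudocount of 0.1 *Gpihbp1* was called lower too (−0.53, adjusted p = 0.049, limma). The call of *Angptl4* was lost in 4 of the 6 fits that left out 1 mouse (without WT mouse 2 or 3 or LKO mouse 2 or 3).

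Of 7 lipoprotein receptors and their helpers, 3 were called lower and 0 higher after TMM. Among those called were *Lsr*, a receptor for triglyceride-rich lipoproteins (log2 fold change −1.14, SE 0.20, adjusted p = 0.0028, edgeR), and *Lrpap1*, a chaperone of receptors of the family of *Vldlr* (−0.82, SE 0.15, adjusted p = 0.0032, edgeR); both were named after their values were seen.

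**Figure D5:**
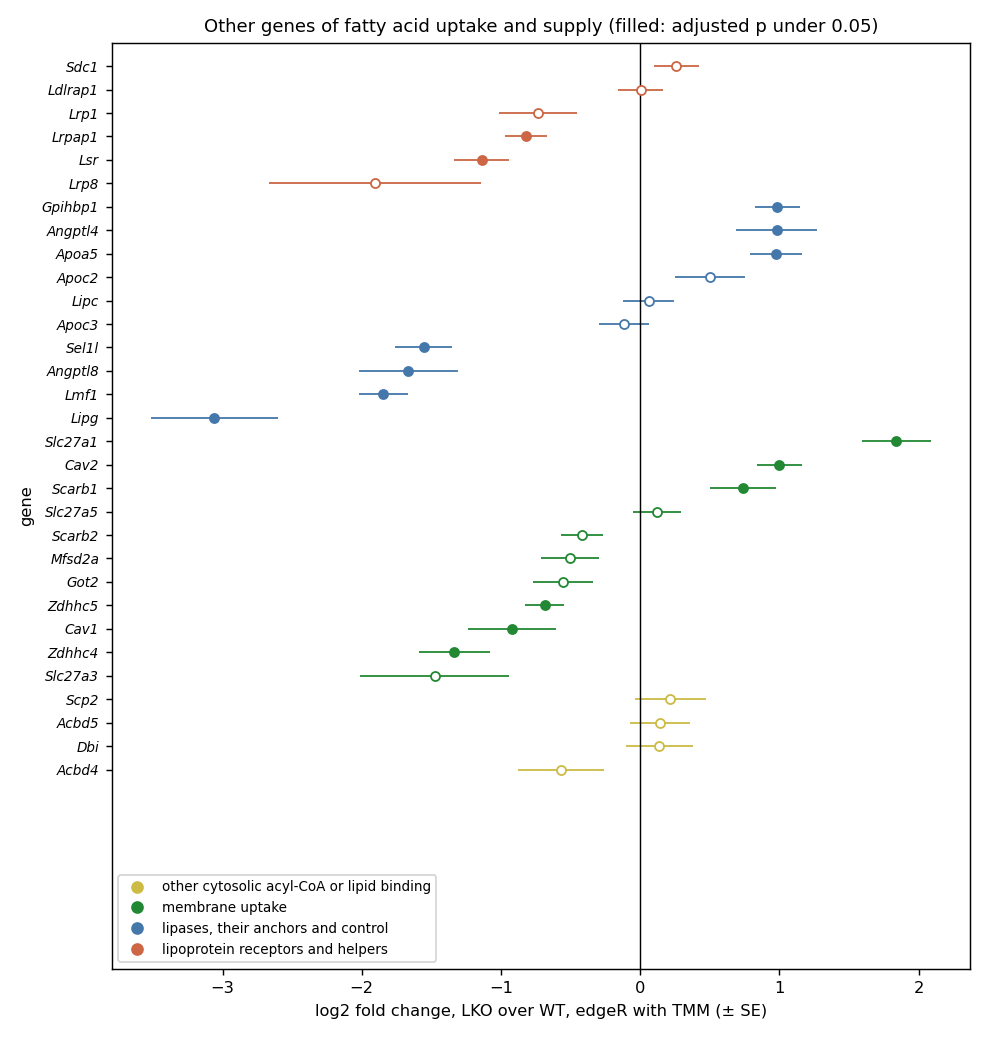
Log2 fold change of LKO over WT (± SE) of 31 of the 34 other genes tested, after TMM in edgeR, grouped by role; filled points passed an adjusted p of 0.05. Among the filled points, *Lipg* and *Lmf1* lie farthest to the left at −3.06 and −1.85 and *Slc27a1* farthest to the right at 1.84; the next rises, those of *Cav2*, *Gpihbp1*, *Angptl4* and *Apoa5*, turned to −0.46 to −0.56 on the log2(TPM + 1) scale.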

How the data were processed

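RNA of 6 livers (3 WT and 3 LKO, grouped by genotype in the labels) was sequenced in 1 library per mouse. The methods name a total RNA kit after rRNA removal and reads of 100 bases, whereas the labels name an mRNA kit; the use of strand in counting is not given in the sources used here. The submitters' processing notes name HISAT2 2.1.0, Bowtie2 2.3.4.1, StringTie 2.1.3b and mm10. The authors deposited read counts, estimated by StringTie and not normalized, with FPKM and TPM for each gene and mouse. Deposited FPKM entered only the relative gene length of the length correction.

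Members and lists were chosen with earlier results of these data known. Counts of 18636 genes with no more than 1 zero count were tested between genotypes by edgeR 4.0.16 (R 4.3.3; TMM factors, quasi-likelihood F test, two-sided), and p-values were adjusted by Benjamini and Hochberg across all of them. CPM are TMM-scaled. The methods' log2 transformation before TMM and their exactTest were not the main test here; exactTest was an alternative. Alternatives were DESeq2 1.42.0, other scalings, filters and thresholds, gene length, replicate block, limma 3.58.1 on log2(TPM + 1) and log2(TPM + 0.1), and leaving out each mouse; FABP shares without LKO mouse 3 were added after seeing the data. Total counts per library were 45934632 to 59576437, and errors are SDs over mice or standard errors of the model. Single values were compared by exact permutation, with a smallest p of 0.1. The fit was tested on simulated counts. All 10 members were named, and, of the 44 other genes, the 5 largest rises and 5 largest falls among those called with a mean of at least 1 CPM; *Slc27a5*, *Cav1*, *Lsr*, *Lrpap1* and ratios of genes other than the *Fabp1* share were chosen after values were seen. Results of some single genes are not reported here, and all counts and adjustments include them. Sequences are from RefSeq (GRCm38.p6), in which 7 of 10 members had a window; all 10 members and 45679 genes matched RefSeq gene numbers. Strand and overlaps are from GENCODE. The planned comparison of protein sequences was not run.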

Additional observations from a re-analysis of the deposited data

How the results depend on the processing

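*Fabp2*, *Fabp5*, *Fabp7*, *Slc27a4* and *Lpl* kept direction and call in all 20 alternatives, and *Fabp4* in 18. The other 4 changed call or direction, and the cause was not tested: the limma alternatives differ from the main test in scaling, length, pseudocount and model at once. With total counts in place of TMM, limma on log2(TPM + 1) and limma on log2(TPM + 0.1), in that order, the genes called higher among the 10 numbered 3, 2 and 2, among the 44 other genes 1, 0 and 0 and among all genes 1167, 453 and 467, and those called lower numbered 25, 29 and 31 of the 44 and 9575, 13322 and 13535 of all, against 3661 higher and 3815 lower in all after TMM. An adjusted p under 0.01 gave 4 of the 44 higher, and 2262 higher and 2112 lower in all. With limma at pseudocounts 1 and 0.1 the log2 fold changes turned to −0.33 and −0.34 for *Cd36*, −0.20 and −0.20 for *Slc27a2*, −0.24 and −0.66 for *Vldlr* (−0.19 with total counts), −0.46 and −0.57 for *Cav2*, −0.50 and −0.53 for *Gpihbp1*, −0.53 and −0.54 for *Angptl4* and −0.56 and −0.57 for *Apoa5*. From read counts in place of TPM, the *Fabp1* share of the FABP sum differed by −16.1 percentage points, against −10.0.

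*Gpihbp1* lost its call with the replicate block and length correction (0.54). Leaving out each mouse in turn, which cost *Cd36* its call in 3 of 6 fits, gave 4 to 5 members higher and 3 lower, and 4 to 8 of the 44 other genes higher, with 4 without WT mouse 2 and without WT mouse 3; the *Fabp1* share differed by −12.2 to −7.90 points. Same-numbered mice of both genotypes had deviations from their group means that correlated at 0.037, −0.026 and −0.074. Pairing by number was thus not seen in the values, and the main test did not use it. With 3 mice per genotype this cannot show that the mice were unpaired. With the replicate block 5 members were called higher and 3 lower, and with the block and the length correction 6 and 4, *Vldlr* being called higher (0.92) and *Fabp1* lower (−1.38).

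There were 3 mice per genotype, and the directions of *Cd36*, *Slc27a2* and *Vldlr* differed between the alternatives.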
